A study of Mus musculus with 2 samples.

Results

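The mitochondrial ribosomal protein genes were taken as the protein-coding genes whose symbol begins with Mrpl or Mrps followed by a digit. In the mm9 annotation used here, 77 of 22359 protein-coding genes met this rule, 47 with an Mrpl symbol for the large subunit and 30 with an Mrps symbol for the small subunit. The rule uses symbols and no measured value. One of them, Mrps36-ps1, carries a symbol that marks a pseudogene and is annotated as protein-coding.

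Mitochondrial ribosomes translate the few messages of the mitochondrial genome, whose products are core subunits of the respiratory chain and of ATP synthase. All proteins of these ribosomes are encoded in the nucleus, made in the cytosol and imported. Some have bacterial homologues and others were added during the evolution of mitochondria. NRF1, the ETS factor Gabpa and YY1 are transcription factors known to act at nuclear genes of mitochondrial function. Msl1 and Nsl1 are subunits of MSL and NSL, the complexes in which the histone acetyltransferase Mof works.

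Chromatin of wt mESCs was cross-linked with 1% formaldehyde, immunoprecipitated for Msl1 or for Nsl1, and the DNA was sequenced, with 1 library for each protein. Both libraries were labelled with wt genotype, 129P2/OlaHsd background, E14 (under age) and passage 26, and no treatment was named. In the study's methods, E14.wt is the name of the male mESCs used. The question addressed at these genes was where each protein lies relative to the TSS and how much of it is found there. The Msl1 library was made with the NEXTflex kit and the Nsl1 library with NEBNext, so that antibody, kit and read length cannot be told apart in any difference between the libraries. In a bulk culture, more cells with a protein at a promoter and more protein per cell cannot be told apart either.

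Sequences just upstream of the TSS are shown for members with high and with low Nsl1 values, since the promoter words counted further on can be seen in them. They were read from mm9 and are written 5′ to 3′ on the strand of the Mrpl or Mrps gene, up to the base before its TSS. Capitals mark CCGGAA, the core word of ETS factors, its longer form CCGGAAGT, the Sp1 word GGGCGG and the CCAAT box word CCAAT, on either strand. The first 3 sequences are the 100 bases upstream of genes among the 5 highest Nsl1 values. The next 4 are the whole stretch between a member and the TSS of a gene on the opposite strand, and Mrpl46 and Mrps11 are both members. The last pair comes from members below an Nsl1 ratio of 3.
Mrpl3 (chr9:104955469-104955568, plus strand): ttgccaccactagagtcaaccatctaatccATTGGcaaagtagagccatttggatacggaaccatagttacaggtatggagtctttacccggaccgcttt
Mrpl48 (chr7:107731645-107731744, minus strand): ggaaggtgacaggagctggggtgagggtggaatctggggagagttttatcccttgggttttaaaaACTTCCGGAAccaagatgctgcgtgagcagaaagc
Mrps31 (chr8:23521712-23521811, plus strand): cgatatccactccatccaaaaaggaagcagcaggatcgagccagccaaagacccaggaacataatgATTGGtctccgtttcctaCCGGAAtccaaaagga
Mrpl30 to Mitd1 (chr1:37947257-37947321, plus strand): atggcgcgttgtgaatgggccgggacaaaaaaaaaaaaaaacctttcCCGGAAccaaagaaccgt
Mrps27 to Ptcd2 (chr13:100114634-100114740, plus strand): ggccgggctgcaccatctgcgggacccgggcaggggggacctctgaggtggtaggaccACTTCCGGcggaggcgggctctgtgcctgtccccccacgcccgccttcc
Mrps18c to Helq (chr5:101227620-101227645, plus strand): gACTTCCGGcccgggaagcgcgggaa
Mrpl46 to Mrps11 (chr7:85927953-85928004, minus strand): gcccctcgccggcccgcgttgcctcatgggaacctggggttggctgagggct
Mrpl24 (chr3:87723328-87723427, plus strand): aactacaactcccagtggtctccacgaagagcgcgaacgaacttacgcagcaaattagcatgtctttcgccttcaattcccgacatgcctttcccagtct
Mrpl38 (chr11:116000183-116000282, minus strand): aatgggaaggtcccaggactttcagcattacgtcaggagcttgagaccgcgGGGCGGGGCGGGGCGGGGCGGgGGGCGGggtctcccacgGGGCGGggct

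After 1 read was kept per position and strand, 19483142 nuclear Msl1 reads and 24883001 nuclear Nsl1 reads were left. The TSS ratio used below is the number of reads within 500 bases of the TSS divided by the local level, which is the density of the library's own reads, per kb, at distances of 5 to 50 kb to either side. The members held 2 to 80 Msl1 reads (median 37) and 1 to 372 Nsl1 reads (median 72) in this window. Intervals in parentheses after a ratio are exact 95% Poisson intervals and cover counting error only, since there are no replicates. The members lie on 17 chromosomes, with 10 on chromosome 11 and 9 on chromosome 17. The local level was higher on chromosome 11, with a median of 18.9 Msl1 and 21.0 Nsl1 reads per kb for its 10 members against 11.7 and 13.1 for the other 67. The ratio divides by this level, and its median on chromosome 11 was 3.16 for Msl1 and 4.96 for Nsl1.

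Nsl1 reads were above the local level at the TSS of most mitochondrial ribosomal protein genes. No Input was used for either library, and members were not compared with genes of like expression. The median Nsl1 TSS ratio of the 77 members was 5.95, with quartiles of 3.91 and 7.53, whereas the median of all protein-coding genes was 1.69. A ratio of at least 3, taken as a call by fold, was reached by 68 of 77 members (88.3%) against 23.9% of all genes. The lower quartile of 3.91 lies below a fold of 4, so that fewer members reached that fold. Of all genes, 15.2% reached it. The interval lay wholly above 1 at 76 members, against 50.6% of all genes. For Msl1 this was 74 members, against 52.3%. With a window of 1000 bases on each side the median was 3.74, against 1.53 over all genes. A ratio of 10 or more was found at 9 members and at 1.98% of all genes. The median member stood at percentile 93.3 of all genes, and 48 members were in the top 10%.

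Msl1 was also higher at these genes than at most genes, at lower ratios than Nsl1. Its median ratio was 3.10 (quartiles 2.24 and 3.84) against 1.82 over all genes. In the Msl1 library 44 members (57.1%) reached the fold of 3, against 23.0% of all genes. A ratio of 10 or more was reached by 0 members, against 0.149% of all genes, and the median member stood at percentile 78.8. Both libraries passed the fold at 41 members, against 11.5% of all genes. Nsl1 alone passed it at 27 members, against 12.4% of all genes, and Msl1 alone at 3, which were Mrpl14, Mrpl38 and Mrpl51, against 11.5%. Neither passed it at 6 members, against 64.6%. The ratio was higher for Nsl1 than for Msl1 at 66 members, against 52.2% of all genes. The intervals did not overlap with Nsl1 higher at 44 members, against 10.6%, and with Msl1 higher at 0, against 6.03%. The Msl1 count depended on the fold, the window and the background. It was 16 at a fold of 4, against 9.71% of all genes. It was 26 with a window of 1000 bases on each side, against 17.8% of all genes, and 70 with the genome-wide level as the divisor, against 41.7%.

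**Figure D1:**
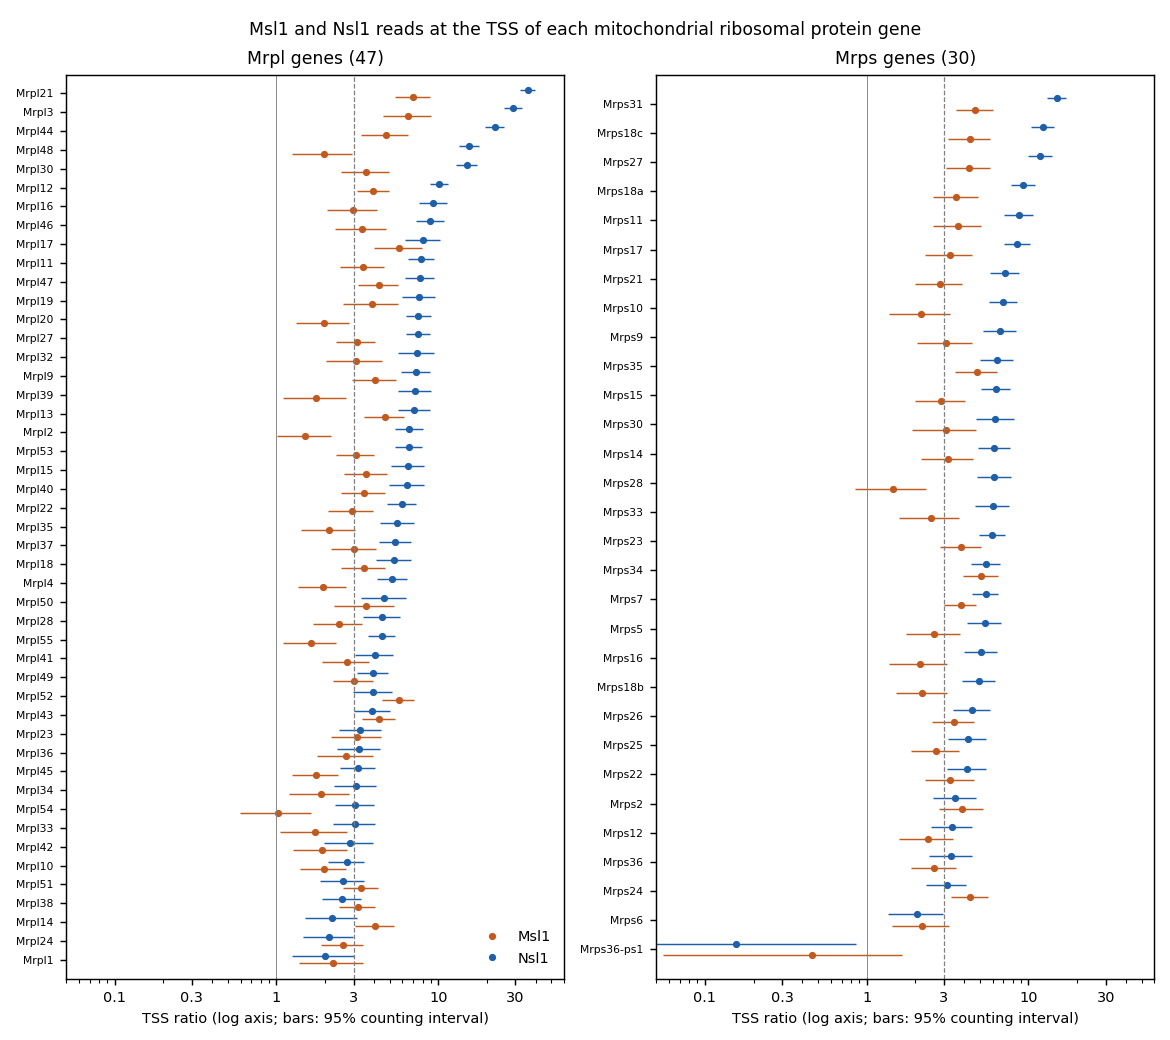
TSS ratio of every member in the Msl1 (orange) and Nsl1 (blue) libraries, on a log axis, sorted by the Nsl1 value within the Mrpl (left) and Mrps (right) genes. Bars are exact 95% Poisson intervals for counting error, and the Nsl1 bar of Mrps36-ps1 is cut at the left edge. The solid line marks 1 and the dashed line the fold of 3, which 68 Nsl1 and 44 Msl1 values reach.

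The highest Nsl1 values belonged to large subunit genes. Mrpl21 (ENSMUSG00000024829.6, TSS at 3282901 on chromosome 19), a homologue of a bacterial large subunit protein, had 372 Nsl1 reads over a local level of 10.4 per kb, a ratio of 35.7 (32.1 to 39.5). In the Msl1 library it had 67 reads over 9.61 per kb, a ratio of 6.96 (5.40 to 8.84). Mrpl21 was thus the highest member in both libraries. Mrpl3, the homologue of a protein close to the peptidyl transferase centre in bacteria, had 248 Nsl1 reads, a ratio of 29.0 (25.5 to 32.9), and 35 Msl1 reads, a ratio of 6.52 (4.54 to 9.06). It held the next place in both libraries. Mrpl44, which has no bacterial ribosomal homologue and carries an RNase III fold, had 238 Nsl1 reads, a ratio of 22.3 (19.6 to 25.3), and 38 Msl1 reads, a ratio of 4.73 (3.35 to 6.50).

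The next members in the Nsl1 order differed in their Msl1 values. Mrpl48 had 197 Nsl1 reads, a ratio of 15.5 (13.4 to 17.8), and 23 Msl1 reads, a ratio of 1.96 (1.24 to 2.94). Its Msl1 interval thus ended below the fold of 3. Mrps31, of the small subunit, had 211 Nsl1 reads and a ratio of 15.0 (13.0 to 17.1), with 58 Msl1 reads and a ratio of 4.67 (3.55 to 6.04). Mrpl30 had the same Nsl1 ratio, 15.0, from 182 reads (12.9 to 17.3), and an Msl1 ratio of 3.57 (2.52 to 4.93). The Nsl1 intervals of Mrpl48, Mrps31 and Mrpl30 overlapped, and their order is within counting error.

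The highest Msl1 values after Mrpl21 and Mrpl3 were close together. Mrpl17, with a bacterial homologue, had 36 Msl1 reads and a ratio of 5.71 (3.998 to 7.90). Mrpl52, a protein particular to mitochondrial ribosomes, had 80 Msl1 reads, the highest number of all members, and a ratio of 5.69 (4.51 to 7.08). The small subunit gene Mrps34 had 67 Msl1 reads and a ratio of 5.09 (3.95 to 6.47). These intervals overlapped one another and that of Mrpl21. The Nsl1 ratios of the same genes were 8.09, 3.96 and 5.47, so that Mrpl52 was high in the Msl1 library and below the median of the members in the Nsl1 library.

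A few members were low. Mrps36-ps1 had 2 Msl1 reads and 1 Nsl1 read, ratios of 0.456 (0.0553 to 1.65) and 0.155 (0.00392 to 0.864), and was the lowest in both libraries. Only 48.7% of the 36-base words in its window occur once in mm9, against at least 81.2% at every other member, and the part of this in its low count was not tested. Mrps36, the gene it resembles by name, had ratios of 2.62 for Msl1 and 3.34 for Nsl1. The product of Mrps36 is found in the oxoglutarate dehydrogenase complex. Mrpl1, of the stalk beside the exit site, had an Nsl1 ratio of 1.99 (1.25 to 3.02) at its annotated TSS, which lies 622 bases from the RefSeq start, where the ratio was 12.8. Mrps6, whose TSS lies 52 bases from that of Slc5a3 on the same strand, had 2.05 (1.36 to 2.97), Mrpl24 had 2.12 (1.46 to 2.97) and Mrpl14 had 2.22 (1.51 to 3.15). These 4 genes all have bacterial homologues.

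The lowest Msl1 values were at other genes than the lowest Nsl1 values, apart from Mrps36-ps1. Mrpl54 had 17 Msl1 reads, a ratio of 1.02 (0.594 to 1.63), and 56 Nsl1 reads, a ratio of 3.06. Mrps28 had an Msl1 ratio of 1.45 (0.843 to 2.32) and an Nsl1 ratio of 6.14. Mrpl2, the homologue of a bacterial protein at the peptidyl transferase centre, had 1.505 (1.01 to 2.16) for Msl1 and 6.61 for Nsl1. Mrpl55 had 1.63 (1.10 to 2.33) for Msl1 and 4.49 for Nsl1. At each of these 4 genes the Nsl1 interval lay above the Msl1 interval. Just inside the fold of 3 were Mrpl49 for Msl1 (3.02) and Mrpl33 for Nsl1 (3.06), and just outside were Mrpl16 for Msl1 (2.99) and Mrpl42 for Nsl1 (2.83).

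Across the 77 members, Spearman's rho between the Msl1 and Nsl1 ratios was 0.435, against 0.626 across all genes. These are descriptions over genes that share both libraries and their local base composition, and genes are not replicates.

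**Figure D2:**
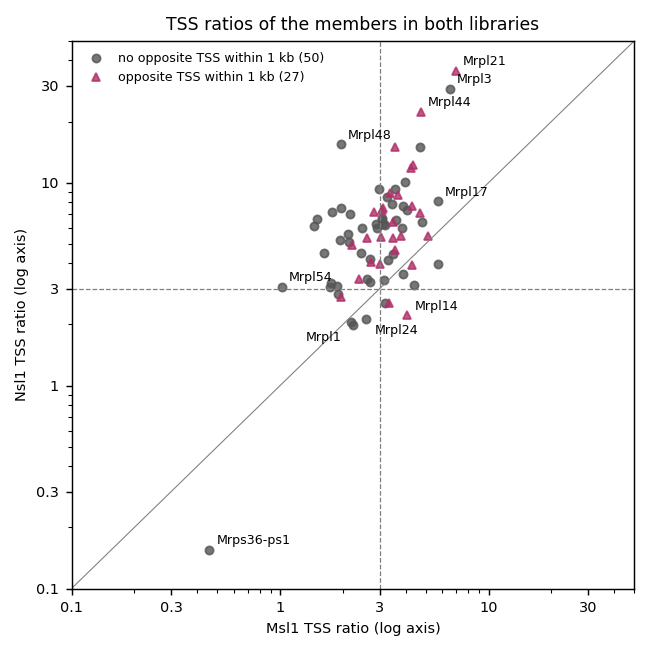
Msl1 TSS ratio (x axis) against Nsl1 TSS ratio (y axis) for the 77 members, both on log axes, with the diagonal of equal ratios and dashed lines at 3. Triangles are the 27 members with the TSS of another protein-coding gene on the opposite strand within 1 kb. Of the members, 66 lie above the diagonal.

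The values differed little between the subunits. The median Nsl1 ratio was 5.60 for the 47 Mrpl genes and 5.97 for the 30 Mrps genes, and the median Msl1 ratio was 3.09 and 3.14. The fold of 3 was reached in the Nsl1 library by 40 of 47 Mrpl and 28 of 30 Mrps genes, and in the Msl1 library by 27 of 47 and 17 of 30. Mrps18a and Mrps30 are counted by their symbols, although both proteins sit in the large subunit of mammalian mitochondrial ribosomes. Mrps36 is likewise counted by its symbol only. The 46 members with a bacterial homologue had a median Nsl1 ratio of 6.39 and the 31 others 4.64, and the Msl1 medians were 3.11 and 3.10.

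Some of these genes share a promoter region with another gene. The nearest TSS of another protein-coding gene lay within 1 kb on the opposite strand at 27 members (35.1%, against 10.7% of all genes), here called head-to-head, within 1 kb on the same strand at 1 (Mrps6), and farther away at 49, here called lone. The head-to-head members with the highest Nsl1 ratios were Mrpl21 with Ighmbp2, Mrpl44 with Wdfy1, Mrpl30 with Mitd1 and Mrps18c with Helq. At Mrpl21 and Mrpl44 the 2 genes overlap by 78 and 125 bases at their 5′ ends, and at Mrpl30 and Mrps18c the TSSs lie 66 and 27 bases apart. Mrps18c had 147 Nsl1 reads, a ratio of 12.2 (10.3 to 14.4), and 48 Msl1 reads, a ratio of 4.33. Mrpl46 and Mrps11, a large and a small subunit gene, have TSSs 53 bases apart and are counted with mostly the same reads. Their Nsl1 ratios were 8.91 and 8.74, and their Msl1 ratios were 3.36 and 3.67.

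Head-to-head and lone members were compared by their medians and by their profiles, with no test. The median Msl1 ratio was 3.48 for head-to-head members (21 of 27 called) and 2.92 for lone members (23 of 49). The median Nsl1 ratio was 5.47 (24 of 27) and 5.95 (44 of 49). The highest bins of the profiles ran the other way, at 4.79 and 5.47 times the local level for Msl1 and at 15.7 and 13.4 times for Nsl1. Over all protein-coding genes, both libraries were higher at head-to-head genes, with medians of 2.87 against 1.71 for Msl1 and 3.57 against 1.59 for Nsl1. Of all head-to-head genes 46.0% were called for Msl1 and 58.2% for Nsl1, and of all lone genes 20.2% and 19.7%. Reads at a head-to-head promoter cannot be assigned to one of its genes.

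The position of the reads differed between the libraries. In profiles over the members, in bins of 50 bases smoothed over 200 bases, the highest Nsl1 bin was centred at 25 bases downstream of the TSS, at 14.0 times the local level. The Nsl1 level lay above the midpoint of its lowest and highest bins over 300 bases, between -100 and 200. The highest Msl1 bin was centred at 275 bases, at 5.24 times the local level, and the level lay above the midpoint over 550 bases, between 100 and 650. Over all genes the highest bins had the same positions, at 3.61 times the local level for Nsl1 and 3.14 times for Msl1. Within single members, the summit of the reads lay within 250 bases of the TSS at 66 members for Nsl1 (85.7%) and at 27 for Msl1 (35.1%). Among all genes with reads these shares were 39.6% and 21.1%. Among members past the fold of 3 they were 88.2% for Nsl1 and 47.7% for Msl1, against 79.1% and 33.5% among all genes past it. The median summit was at 40 bases for Nsl1 and at 255 bases for Msl1. The cut of 250 bases thus fell next to the median of the Msl1 summits.

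**Figure D3:**
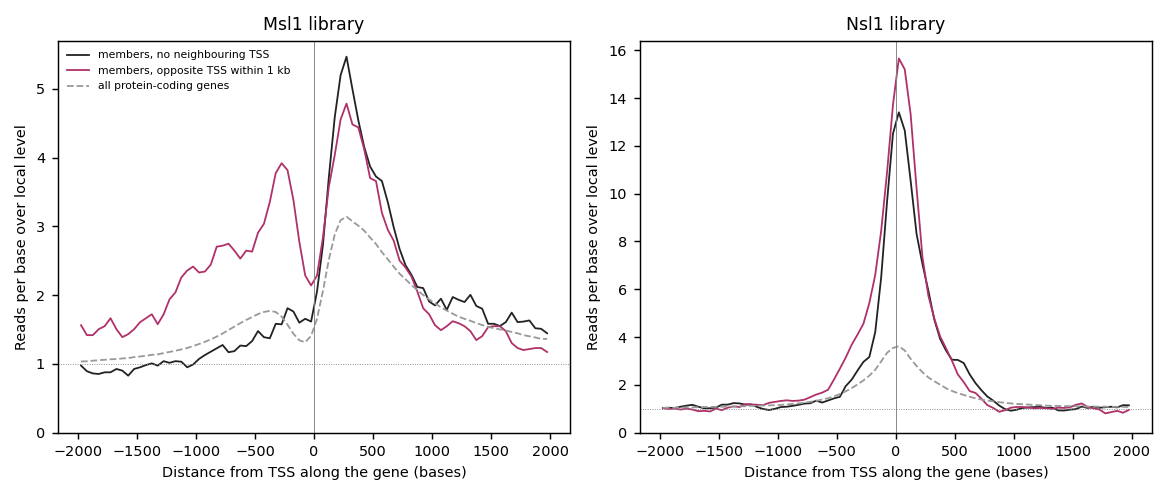
Reads per base over the local level against the distance from the TSS, along the direction of the gene, for Msl1 (left) and Nsl1 (right), in the 49 lone members, the 27 head-to-head members and all protein-coding genes. The y axes differ. Msl1 has its highest bin at 275 bases in each group, with a further upstream maximum of 3.92 times the local level at head-to-head members, 1.81 at lone members and 1.77 over all genes, and Nsl1 has its highest bin at 25 bases in each group.

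Downstream of the promoter, Msl1 reads remained above the local level while Nsl1 reads came close to it. The downstream ratio, which is reads per kb from 500 to 2000 bases downstream over those within 500 bases, summed over the members, came to 0.634 in the Msl1 library (0.603 to 0.668) and to 0.193 in the Nsl1 library (0.184 to 0.203). Over all genes it was 0.838 and 0.483. The level from 500 to 2000 bases was 1.95 times the local level for Msl1 and 1.24 times for Nsl1, against 1.80 and 1.20 over all genes. Over this whole window the level of the members was thus not below that of all genes. At 1000 bases downstream it was lower. There it was 1.80 times the local level for Msl1 and 0.980 times for Nsl1, against 1.91 and 1.21 over all genes.

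Single members differed in this spread. Among the 32 members with at least 40 Msl1 reads at the TSS, Mrps2 had the highest Msl1 downstream ratio, 1.06 (0.713 to 1.61), followed by Mrpl38 with 0.840 and Mrpl24 with 0.816. The lowest were Mrpl52 with 0.284 (0.184 to 0.429), Mrpl14 with 0.290 and Mrpl51 with 0.304, whose intervals did not reach those of Mrpl24, Mrpl38 and Mrps2. Among the 71 members with at least 40 Nsl1 reads, Mrps24 had the highest Nsl1 downstream ratio, 0.507 (0.324 to 0.789), then Mrps2 with 0.475 and Mrpl38 with 0.461. The lowest were Mrpl44 with 0.0365 (0.0191 to 0.0635), Mrpl48 with 0.0406 and Mrps27 with 0.0420. At Mrpl44 this came from 13 reads in the downstream window against 238 at the TSS.

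Upstream, the head-to-head members differed from the lone ones in the Msl1 library. Reads per kb from 500 to 2000 bases upstream over those at the TSS were 0.563 (0.518 to 0.612) for Msl1 at head-to-head members and 0.364 (0.336 to 0.394) at lone members. Relative to the local level this was 1.99 and 1.04, so that upstream Msl1 was near the local level at lone members. The Nsl1 values were 0.163 and 0.189. Of the Msl1 reads within 500 bases, 56.1% lay downstream of the TSS at head-to-head members and 72.5% at lone members. With no minimum number of reads applied, the Msl1 upstream value was 2.46 (1.65 to 3.76) at Mrps18b, next to Ppp1r10, from 32 reads at the TSS. At Mrpl54, whose nearest TSS is that of Apba3 at 1238 bases, it was 1.77 (0.991 to 3.29) from 17 reads, and at Mrpl49, next to Fau, 1.11 (0.777 to 1.61) from 51 reads.

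The 2 libraries were also compared directly at each TSS, as Msl1 reads over Nsl1 reads within 2 kb, each per nuclear read kept. Among the 76 members with at least 100 reads of both libraries together, the median was 0.943, against 1.28 over 14584 TSSs. At most 0.5 times that overall median was found at 14 members, against 4.98% of TSSs, and at least 2 times at 0 members, against 4.46%. The lowest values were at Mrpl48, with 49 Msl1 and 224 Nsl1 reads and a ratio of 0.279 (0.201 to 0.382), Mrpl44 with 0.284 (0.211 to 0.378) and Mrpl3 with 0.308 (0.235 to 0.401). The highest were at Mrpl14, with 152 Msl1 and 77 Nsl1 reads and a ratio of 2.52 (1.90 to 3.36), Mrpl49 with 2.14 (1.69 to 2.72) and Mrpl24 with 2.13 (1.58 to 2.89). The order of the members thus spanned from fewer Msl1 than Nsl1 reads to more, with the top of the range just below 2 times the overall median.

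The genes most like the members in function were set beside them. Cytosolic ribosomal protein genes were taken by Rpl or Rps symbols, and respiratory chain genes by Nduf, Sdh, Uqcr, Cox or Atp5 symbols. Whether each gene taken this way codes for a subunit was not checked. For the 79 cytosolic ribosomal protein genes the median Nsl1 ratio was 3.57, with 53 called, and the median Msl1 ratio 3.34, with 47 called. For 99 nuclear genes of the respiratory chain and ATP synthase these were 4.20 with 72 called and 2.94 with 47 called. The Msl1 medians of the 3 families lay close together, whereas the Nsl1 median was highest of the 3 in the mitochondrial ribosomal protein genes. The 12 mitochondrial translation factors described below had a higher Nsl1 median, 6.52. The shape of the Msl1 signal of the respiratory chain genes was close to that of the members, with the highest bin at 325 bases, 4.87 times the local level, and a width of 650 bases above the midpoint. At cytosolic ribosomal protein genes the highest Msl1 bin was at 525 bases, the downstream ratio was 1.48 and the Msl1 to Nsl1 ratio within 2 kb had a median of 2.03. At least 2 times the overall median of that ratio was found at 18 cytosolic ribosomal protein genes and at 0 of the 76 members. Over all TSSs with at least 100 reads the share was 4.46%, and the 0 of the members is near it. No test between the families was made.

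**Figure D4:**
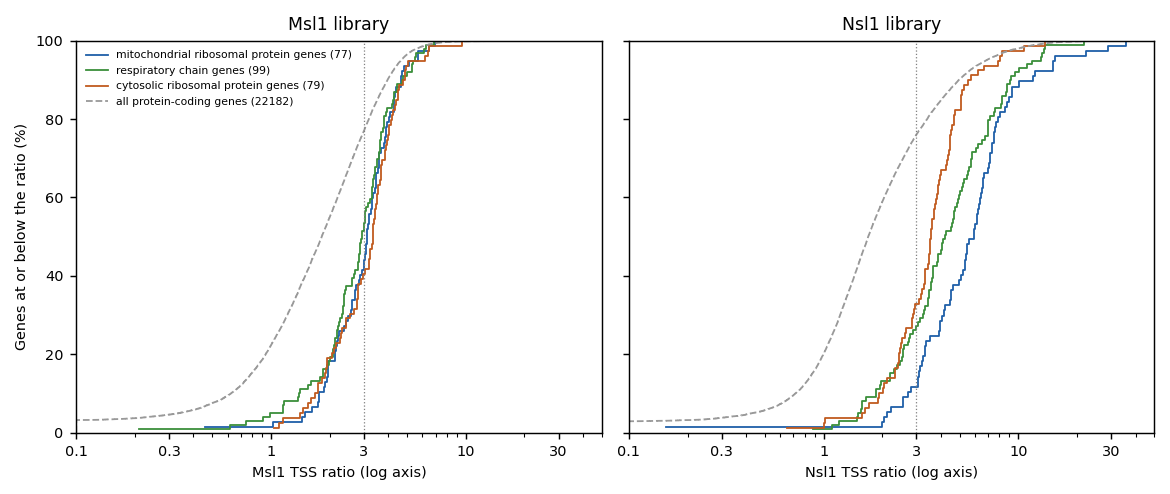
Percentage of genes at or below a given TSS ratio (log axis) in the Msl1 (left) and Nsl1 (right) libraries, for the 77 members, 99 respiratory chain genes, 79 cytosolic ribosomal protein genes and all protein-coding genes with a local level (22182 for Msl1 and 22194 for Nsl1). Ratios below 0.1 are drawn at 0.1. The 3 families run close together for Msl1, and the members lie furthest to the right for Nsl1.

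The shares of all genes past the fold were 23.9% for Nsl1 and 23.0% for Msl1. Among 7 further proteins of mitochondrial ribosomes that carry other symbols, 5 reached the fold of 3 for Nsl1 and 2 for Msl1, the latter near the share of all genes. Ict1, a peptidyl-tRNA hydrolase built into the large subunit, had an Nsl1 ratio of 9.04, whereas Dap3, a GTP-binding small subunit protein, had 1.64 and Gadd45gip1 had 0.808. The Nsl1 summits of Dap3 and Gadd45gip1 lay 1315 and 1115 bases downstream of the TSS used, outside the window of the ratio. Whether these genes start elsewhere was not tested. The other Nsl1 ratios were 7.02 at Aurkaip1, 4.38 at Ptcd3, 4.29 at Mrp63 and 3.91 at Chchd1. Both Msl1 calls of this list were Mrp63, at 4.23, and Dap3, at 3.49, and Aurkaip1 had the lowest Msl1 ratio, 1.08. Among 12 mitochondrial translation factors, 9 were called for Nsl1 and 7 for Msl1. Their highest Nsl1 ratios were 14.5 at Gfm2, 13.8 at the initiation factor gene Mtif2 and 13.3 at Taco1, a translational activator. The lowest Nsl1 ratios of this list were 1.90 at Mtrf1l, 2.38 at Tsfm and 2.65 at Mtfmt. The median was 6.52 for Nsl1 and 3.31 for Msl1, and the Msl1 ratios ranged from 2.12 at Tsfm, 2.20 at Mtrf1 and 2.22 at Mtfmt to 4.35 at Gfm2, 4.77 at Guf1 and 4.85 at Taco1.

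Of 18 TSSs of assembly and rRNA factors, 14 were called for Nsl1 and 4 for Msl1, and the Msl1 count is near the share of all genes. Nsun4 has 2 of these TSSs, 496 bases apart, which share reads and are both called for Nsl1. With Nsun4 counted once, 13 of 17 genes were called for Nsl1. Their highest Nsl1 ratios were 14.9 at the GTPase gene Mtg1, 14.7 at Fastkd2 and 12.1 at Mterfd2. The lowest were 1.12 at Gtpbp5, 1.94 at Rbfa and 2.27 at Mpv17l2. The TSS used for Gtpbp5, at 179813328 on chromosome 2, lies inside the gene, which begins at 179805293. The Msl1 ratios ranged from 1.57 at Nsun4, 1.63 at Gtpbp5 and 1.76 at Tfb1m to 3.74 at Mtg1, 3.84 at Mterfd1 and 4.02 at Mrm1. Fastkd2, with an Msl1 ratio of 1.82, passed the fold for Nsl1 only, as did Mrpl48 and others of this list. Its Msl1 downstream ratio was 1.54 (0.838 to 2.97), from 37 reads downstream and 16 at the TSS. Of 5 genes of mitochondrial transcription, 3 were called for Nsl1 and 2 for Msl1. The Nsl1 ratios were 5.28 at Lrpprc, 4.30 at Tfb2m, 4.08 at the packaging factor gene Tfam, 2.37 at the RNA polymerase gene Polrmt and 0.526 at Mterf, which had 5 Nsl1 reads.

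The promoters of the members were rich in CpG. From 250 bases before to 50 after the TSS, the median GC content was 57.7% and the median observed to expected CpG ratio was 0.820, against 55.3% and 0.538 over all genes. A CpG ratio of at least 0.75 with a GC content of at least 55% was met by 35 of 77 members (45.5%) and by 27.9% of all genes. In this class the median Nsl1 ratio was 5.32 at members and 2.72 at all genes, and the median Msl1 ratio was 3.48 and 2.90. Outside it, the members had medians of 6.15 for Nsl1 and 3.07 for Msl1, against 1.45 in both libraries for all genes. The median Nsl1 ratio of the members was thus not lower outside this class than in it. The class also asks for GC content. The median CpG ratio of the members, 0.820, was above the cut of 0.75, while 45.5% of them were in the class. Some members outside the class therefore passed the CpG cut. Members and all genes were not compared at like CpG content, and a dependence of the Nsl1 ratio on CpG was not tested.

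In the same 300-base window, the words of 3 factors tied to mitochondrial genes were more frequent at members than at all promoters. On either strand, CCGGAAGT, the word for ETS factors, was found at 13 of 77 members (16.9%) against 4.79% of all genes, and AAGATGGC, the word for YY1, at 13 (16.9%) against 3.34%. CGCATGCG, the word for NRF1, was found at 5 (6.49%) against 2.23%. CCGGAAGT and CGCATGCG contain CpG, and shares at promoters of like CpG content were not compared. The words GGGCGG for Sp1 (37 members, 48.1%, against 43.9%) and CCAAT (31, 40.3%, against 37.8%) were at similar shares, and TATAAA was found at 7 (9.09%) against 13.5%. Of 2 words added later, CTCGCGAG for Banp was found at 2 members (2.60%) against 1.15% of all genes and ACTACAAT for Znf143 at 0 against 0.787%. The RefSeq promoter table of GRCm38.p6 has entries for 67 of the members. There the shares were 16.4% against 4.0% for CCGGAAGT, 17.9% against 2.88% for AAGATGGC and 10.4% against 1.91% for CGCATGCG. For GGGCGG they were 49.3% against 35.9%, a wider gap than in mm9, and for CCAAT 40.3% against 37.9%.

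The shorter word CCGGAA, which is contained in CCGGAAGT, was found at 40 of 77 members (51.9%) against 17.6% of all genes. It was searched after the sequences above had been seen. It is present in the sequences of Mrpl48, Mrps31, Mrpl30, Mrps27 and Mrps18c, on one strand or the other, and is not in the stretches shown for Mrpl3, Mrpl46 with Mrps11, Mrpl24 and Mrpl38. Over all genes, the median Nsl1 ratio was 3.48 with this word and 1.53 without it, and the Msl1 medians were 2.66 and 1.64. Within the members the medians were 5.97 with it and 5.44 without it for Nsl1, and 3.15 and 3.03 for Msl1. The word therefore separated all genes more than it separated the members. CCGGAA contains CpG, and genes of like CpG content were not compared. Medians with and without the other words are not given here. A match to a word is a description of the sequence and shows no binding of a factor.

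The position of the annotated start bears on a few members. The RefSeq promoter sequence was matched to mm9 for 67 members, and its start lay over 100 bases from the annotated one at 10. At Mrpl1 the RefSeq start is 622 bases downstream of the annotated TSS, and the Nsl1 summit lay at 605 bases. Counted around the RefSeq start, Mrpl1 had 140 Nsl1 reads and a ratio of 12.8 (10.7 to 15.0), and 46 Msl1 reads and a ratio of 4.94 (3.62 to 6.59), in place of 1.99 and 2.24. Mrpl1 would then be among the highest Nsl1 values. At Mrpl39 the RefSeq start is 498 bases downstream, the Nsl1 summit lay at 510 bases, and the ratios there were 9.94 for Nsl1 and 3.21 for Msl1, in place of 7.18 and 1.77. Mrpl20 went the opposite way. Its RefSeq start is at -658 bases, which is upstream, and around it the Nsl1 ratio was 1.28 (0.803 to 1.94) in place of 7.54 and the Msl1 ratio 0.324 in place of 1.97. Nsl1 thus gained the call of Mrpl1 and lost that of Mrpl20, with 68 members called by either start. Msl1 gained Mrpl1, Mrpl39 and Mrps5 and lost Mrpl47 and Mrpl49, with 45 called by the RefSeq start. The 2 starts of Mrpl49 lie only 3 bases apart, and its 51 and 50 Msl1 reads gave ratios of 3.02 and 2.96.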

How the data were processed

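ChIP-seq reads of wt mESCs were analysed, with 1 Msl1 and 1 Nsl1 library. Per the labels, the authors used CASAVA 1.8.2 and Bowtie 0.12.7 and the mm9 build, and the study's methods state that unique reads were used, without saying whether this refers to alignment or to duplicates. They deposited 1 line per aligned read, with its start and end position, strand and a score. The deposited score is 255 on every line and was not used as a measurement. The Msl1 reads are 50 bases long and the Nsl1 reads 36 bases.

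Of the nuclear reads, 18.3% (Msl1) and 4.56% (Nsl1) repeated a position and strand and were left out, and the 0.145% and 0.0473% mitochondrial reads were not used. Reads were moved by 102 and 67 bases towards the middle of the fragment, since the plus and minus strands correlated best at 205 and 135 bases. Genes and TSSs came from GENCODE M1, another release than the study used, with 1 TSS per gene. Counts were made with Python 3.11.15, NumPy 2.4.6, pandas 2.3.3, SciPy 1.17.1 and pysam 0.24.0, and plots with matplotlib 3.10.9. The counting was tested on simulated reads with planted sites. No Input was used.

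Since each antibody had 1 library, the libraries were not tested against each other, no p-value is given, and a call is a fold of at least 3. Exact Poisson and binomial intervals are over reads and cover counting error only. The members, gene lists, words and settings were chosen with earlier results of these data known. The members named are those with the 5 highest and 5 lowest ratios of each library, the 3 highest and 3 lowest Msl1 to Nsl1 and downstream ratios, those next to the fold, and the 4 highest with a neighbouring TSS. Genes of the other lists are named when among their 3 highest or 3 lowest. Mrps36, Mrps18a, Mrps18b, Mrps30, Mrps5, Mrpl39, Mrpl20, Mrpl47, Mrpl46 and Mrps11 were named after their values had been seen. Promoter words were searched as exact matches on both strands. RefSeq promoters (GRCm38.p6) were matched to mm9 by their sequence. Mrps34, Mrps36-ps1, Mrpl19, Mrps28, Mrpl13, Mrpl4, Mrpl54, Mrpl38, Mrpl15 and Mrps35 had no entry.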

Additional observations from a re-analysis of the deposited data

How the results depend on the processing

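The alternatives were all reads kept, a window of 1000 bases, the genome level as divisor, the most upstream start, a shift of 100 bases in both libraries, lone members only, folds of 2 and 4 and a downstream window from 1000 to 2000 bases. The RefSeq start and leaving out Mrps36-ps1 were added after the data had been seen. Of 80 values over the members, 63 stayed within counting error, the interval of the median or 1.5 times the count, and 17 moved. Of 336 values of the 28 named members, 72 moved, 36 of them with the genome level and 29 with the window of 1000 bases. With the window of 1000 bases the median ratio was 2.61 for Msl1 and 3.74 for Nsl1, and 26 members were called for Msl1. With the genome level the medians were 4.85 and 7.40, and 70 members were called for Msl1. A fold of 4 was reached by 16 members for Msl1, against 9.71% of all genes. Among the 49 lone members, 23 were called for Msl1 and 44 for Nsl1, fewer by construction, and the downstream ratios were 0.721 and 0.214. With the downstream window from 1000 bases they were 0.520 and 0.160. The Nsl1 downstream ratio was 0.178 with all reads kept and 0.181 with the RefSeq start. In both of these, 1 member instead of 0 reached 2 times the median Msl1 to Nsl1 ratio. The positions of the highest bins did not move by more than 1 bin under any alternative run. No paired analysis was possible because each antibody has 1 library. Neither replicates nor an Input were used to show how much of any difference lies between libraries.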
